A study of Mus musculus with 16 samples.

Results

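Homeodomain-interacting protein kinases (*Hipk1* to *Hipk4*) and protein kinases D (*Prkd1* to *Prkd3*) are 2 small families of serine/threonine kinase genes, and their 7 members were taken by symbol from the 48397 genes counted in every library. The families were chosen by their measured levels over the 4 groups, which were known beforehand. Differences of the members between groups are therefore given below as a description, without their p-values, and they support nothing. The same holds for the counts of members that passed a threshold between groups. All 7 members passed the filter on low counts, as did 17038 genes in all. The samples were primary hippocampal cultures of wild type CD1 mouse pups, treated with AraC at 3 DIV and with 10-fold concentrated astrocyte medium at 10 and 13 DIV, and RNA was taken at 17 DIV. The medium came from immortalized astrocyte lines, which were *Apoe*-/- for the control neurons and homozygous for human apoE2, apoE3 or apoE4 for the 3 treated groups, and there were 4 libraries per group, 16 in all. Each kind of medium thus came from 1 line of astrocytes, so the isoform and other differences between the lines cannot be told apart, and the wild type cultures keep their own mouse *Apoe*.

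Most HIPK proteins are nuclear kinases that phosphorylate transcription factors and their corepressors. HIPK2, the best known of them, acts on p53 after DNA damage and on the Wnt and TGF-beta pathways, is held down by ubiquitin ligases of the SIAH family, and is known in neurons for its part in survival and cell death. Protein kinases D are switched on by diacylglycerol and by phosphorylation by protein kinase C, act at the Golgi and the plasma membrane, and phosphorylate class IIa histone deacetylases, which frees MEF2 transcription factors. In neurons they are known for membrane traffic to dendrites, neuronal polarity and dendritic spines.

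Reads counted on genes numbered 14087723 to 34248172 per library, with medians of 15852618 for replicate 1 to 27507200 for replicate 3. Reads on no single gene made up 38.4 to 73.7% of a library, and *Lars2* alone took 0.359 to 15.02% of the gene counts. The 5 neuronal markers summed to 2078 to 5180 CPM and the 5 astrocyte markers to 382 to 4877 CPM, so the cultures held both cell types. In such bulk RNA, more cells of a type and more transcript per cell cannot be told apart. Libraries that share a replicate number deviated together from their group means (r of 0.362 to 0.831 over all genes), and 63.8% of all genes differed between the numbers at an adjusted p under 0.05 in edgeR with the number as a block. Results are therefore given without and with this replicate block.

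The promoter sequences of 3 members are shown because *Hipk2* and *Prkd3* had the highest ratios of apoE4 to control neurons, while *Hipk4* varied between replicate numbers in another direction. Each is the stretch of 250 bases before the RefSeq start (GRCm38.p6), and capitals mark GC boxes, GGGCGG or its complement CCGCCC, the sites known to bind SP-family factors, with matches on either strand counted and overlapping matches each counted once.
*Hipk2*, chr6:38876191-38876440, minus strand: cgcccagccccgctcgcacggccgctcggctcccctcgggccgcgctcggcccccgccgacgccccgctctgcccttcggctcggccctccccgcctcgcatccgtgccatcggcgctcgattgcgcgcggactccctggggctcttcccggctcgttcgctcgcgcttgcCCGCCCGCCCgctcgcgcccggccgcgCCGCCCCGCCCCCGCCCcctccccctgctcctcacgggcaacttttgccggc
*Prkd3*, chr17:79020817-79021066, minus strand: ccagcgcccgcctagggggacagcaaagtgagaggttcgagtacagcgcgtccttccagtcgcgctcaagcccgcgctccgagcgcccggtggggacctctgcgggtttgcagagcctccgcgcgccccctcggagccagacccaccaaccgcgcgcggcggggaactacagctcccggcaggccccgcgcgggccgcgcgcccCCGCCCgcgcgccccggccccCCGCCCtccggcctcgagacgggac
*Hipk4*, chr7:27523011-27523260, plus strand: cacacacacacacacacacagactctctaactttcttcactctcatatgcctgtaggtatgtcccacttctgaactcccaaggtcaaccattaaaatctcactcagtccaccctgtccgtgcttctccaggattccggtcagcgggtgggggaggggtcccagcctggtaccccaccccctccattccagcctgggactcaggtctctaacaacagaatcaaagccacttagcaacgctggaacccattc

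The *Hipk2* promoter held 5 GC boxes and that of *Prkd3* 2, while *Hipk4* had 0, and 57.9% of the 11593 tested genes with a promoter in the table had at least 1. Its CpG content, as observed over expected from the base composition, was 1.18 for *Hipk2*, 1.03 for *Prkd3* and 0.25 for *Hipk4*, against a median of 0.711. Only 1.54% of promoters had a higher ratio than *Hipk2*, and 89.5% had a higher one than *Hipk4*. Of the others, *Prkd1* held 6 GC boxes, *Hipk3* and *Prkd2* 2 each and *Hipk1* 0. CACGTG, TGACGTCA and TATAAA, the E-box, the full cAMP response element and the TATA box, were in none of the 7 windows and in 8.05, 2.73 and 6.76% of all promoters.

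The gene models (GENCODE M21, mm10) separate the members as well. *Hipk1* (chr3:103739815-103791563), *Hipk2* (chr6:38694390-38876165) and *Hipk3* (chr2:104426481-104494446) have longest annotated 3′UTRs of 4136, 3748 and 3377 bases, and *Prkd3* (chr17:78949405-79020816) of 2455 bases, against a median of 1384 bases over tested coding genes. *Hipk4* (chr7:27523267-27531175), *Prkd1* (chr12:50341231-50649098) and *Prkd2* (chr7:16842902-16870464) lie below that median at 311, 774 and 444 bases. Exons of *Hipk1* lie over *Gm15886* on the other strand for 6.68% of their length, where reads of both genes cannot be told apart, since whether counting used strand is not given in the sources used here. Those of *Hipk3* overlap *Mir1902* for 1% on the same strand, and no other member overlaps the exons of another gene.

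Per length, the order of the levels in control neurons was *Hipk3*, *Hipk1*, *Prkd1*, *Hipk2*, *Hipk4*, *Prkd3* and *Prkd2*. *Hipk3* was at 15.1 ± 1.14 CPM per kb of exon (SD, n = 4) and *Hipk1* at 9.37 ± 2.52. The next 3 were close together, with *Prkd1* at 2.58 ± 1.09, *Hipk2* at 1.95 ± 0.952 and *Hipk4* at 1.95 ± 0.865 CPM per kb, differences smaller than their SDs. *Prkd3* at 0.712 ± 0.313 and *Prkd2* at 0.564 ± 0.187 CPM per kb also lay within each other's spread. With each of the 3 isoforms *Hipk2* ranked next after *Hipk3* and *Hipk1*, at 2.55 ± 0.756 CPM per kb with apoE2, 3.75 ± 1.39 with apoE3 and 8.23 ± 4.03 with apoE4. With apoE2 and apoE3 it lay within the spread of *Prkd1*, at 2.24 ± 0.773 and 3.07 ± 1.60 CPM per kb. In the apoE4 neurons *Prkd3* at 1.72 ± 1.02 CPM per kb was above *Prkd2* at 0.502 ± 0.124. *Hipk3* stayed first in every group.

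**Figure D1:**
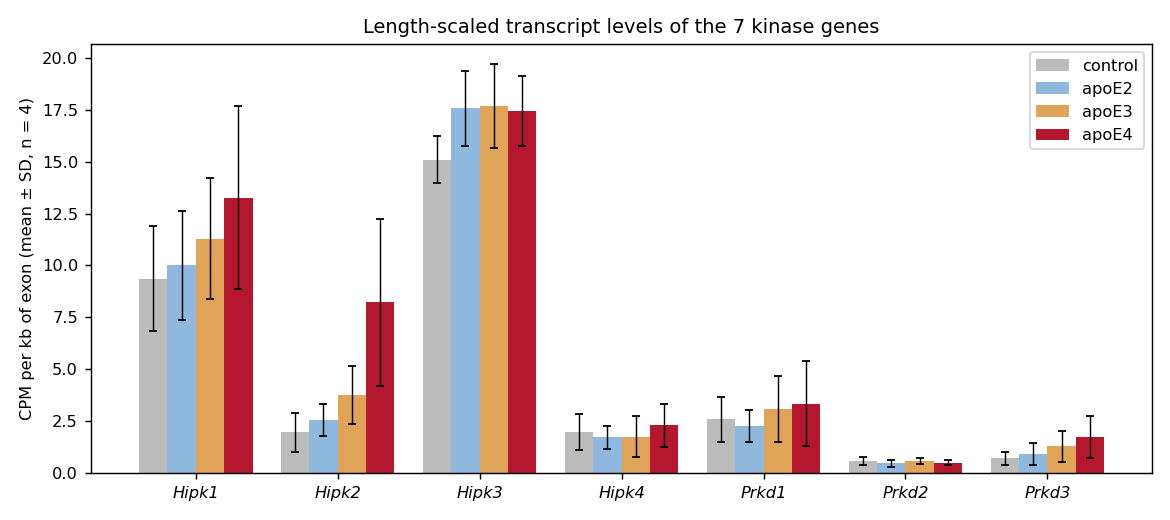
Mean CPM per kb of exon (bars, with SD over 4 libraries) of the 7 genes in the 4 groups. *Hipk3* and *Hipk1* had the tallest bars in every group, and the *Hipk2* bar was 1.95 CPM per kb in the control and 8.23 CPM per kb in the apoE4 neurons.

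*Hipk2*, whose kinase phosphorylates p53, was the member that differed most between the groups. In the control neurons it was at 23.6, 11.1, 8.93 and 25.3 CPM in replicates 1 to 4. With apoE2 lipoproteins the same replicates had 27.8, 12.9, 23.5 and 26.0 CPM, and with apoE3 39.8, 19.4, 26.8 and 46.6 CPM. With apoE4 they had 118.6, 38.0, 52.5 and 81.7 CPM. The lowest apoE4 library was thus above the highest control and the highest apoE2 library, while it lay below 2 of the 4 apoE3 libraries. Libraries not overlapping and higher with apoE4 were found for 1.34% of all genes against the control and for 1.90% against apoE2. In the other comparisons each member overlapped between the groups, where 1.14% of all genes were higher without overlap with apoE2, 1.40% with apoE3, 1.34% for apoE4 over apoE3 and 0.698% for apoE3 over apoE2.

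Within a replicate number the ratio of apoE4 to control *Hipk2* was 5.01, 3.42, 5.87 and 3.23, and that of apoE4 to apoE3 was 2.98, 1.96, 1.96 and 1.75. The log2 fold change between apoE4 and control neurons was 2.08 (standard error 0.43), a 4.22-fold higher level, or 2.07 (0.18) with the replicate block. Between apoE3 and control neurons it was 0.94 (0.42), or 0.98 (0.17) with the block, and *Hipk2* was higher in 4 of 4 pairs. Between apoE2 and control neurons it was 0.39 (0.41), or 0.46 (0.17) with the block, also higher in 4 of 4 pairs, although 3 of these ratios lay between 1.03 and 1.18 and the fourth, of replicate 3, was 2.63. Every replicate number thus had its lowest *Hipk2* level in the control and its highest with apoE4.

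The share of reads on no annotated feature, taken over these reads and the gene counts, moved with *Hipk2* in part. It was 30.7, 24.9, 22.2 and 32.99% in control replicates 1 to 4 and 46.6, 16.5, 35.9 and 38.3% in the apoE4 ones, with medians of 27.8 and 37.1%, and in both groups its order was that of *Hipk2*. In the apoE2 libraries it was 45.5, 27.1, 28.4 and 12.6% and in the apoE3 libraries 41.1, 21.4, 25.1 and 31.1%, where the orders differed. In replicate 2 the share was lower with apoE4 than in the control, while *Hipk2* was 3.42 times as high. *Lars2* took 5.95, 4.85, 3.89 and 8.36% in control replicates 1 to 4 and 12.2, 0.359, 8.13 and 9.82% in the apoE4 ones, with medians of 5.40 and 8.98%. The apoE4 library of replicate 2, with the lowest *Hipk2* level of its group, was thus below every control library in *Lars2*. The part of these shares in the level of *Hipk2* was not otherwise tested.

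*Prkd3*, which encodes the protein kinase D isoform also called PKD3, had the same order of group means at lower CPM. The control libraries of replicates 1 to 4 had 9.87, 4.19, 5.76 and 11.6 CPM, and the apoE2 libraries 17.3, 3.63, 7.43 and 11.7 CPM. With apoE3 they had 20.5, 4.71, 9.71 and 21.8 CPM, and with apoE4 26.0, 6.44, 12.7 and 30.5 CPM. All 4 groups overlapped. Replicate 2 was lowest in each of them, and its apoE4 library lay below the control libraries of replicates 1 and 4.

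Inside the pairs the *Prkd3* ratio of apoE4 to control was 2.63, 1.54, 2.21 and 2.64, and that of apoE3 to control was 2.08, 1.13, 1.69 and 1.88. The log2 fold change with apoE4 was 1.27 (standard error 0.59), or 1.16 (0.15) with the block, and with apoE3 0.85 (0.58), or 0.74 (0.16). With apoE2 it was 0.35 (0.58), or 0.26 (0.16), higher in 3 of 4 pairs, and it was −0.04 without apoE2 replicate 1. ApoE4 was above apoE3 in 4 of 4 pairs, by ratios of 1.27 to 1.401, a log2 fold change of 0.42 (0.58), or 0.42 (0.15) with the block, and of 0.09 without apoE4 replicate 4 in the fit without the block.

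**Figure D2:**
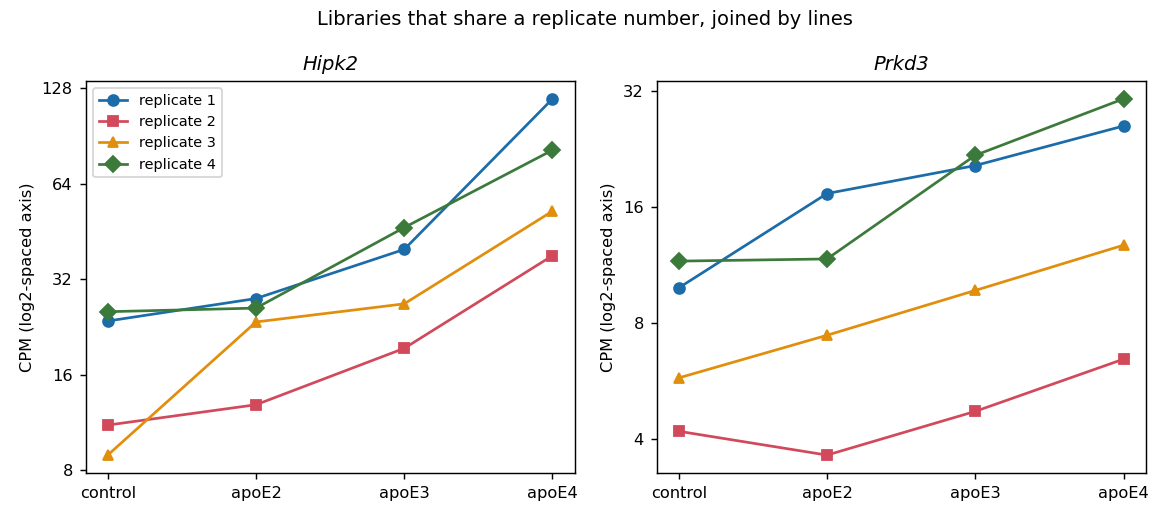
CPM of *Hipk2* and *Prkd3* in the 16 libraries on a log2-spaced axis, with the libraries of each replicate number joined by a line across the 4 groups. Every *Hipk2* line ran from its lowest value in the control to its highest with apoE4, and the *Prkd3* line of replicate 2, from 4.19 CPM in the control to 6.44 CPM with apoE4, lay below the others throughout.

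*Hipk1*, the close relative of *Hipk2*, was at 102 ± 27.5 CPM in the control and at 145 ± 48.2 CPM in the apoE4 neurons (SD, n = 4). The control values of replicates 1 to 4 were 111.7, 79.6, 80.8 and 137 CPM and the apoE4 values 174, 85.0, 128 and 192 CPM, so the groups overlapped. The log2 fold change was 0.50 (standard error 0.28), or 0.47 (0.11) with the block, and *Hipk1* was higher with apoE4 in 4 of 4 pairs, by ratios of 1.07 to 1.59. With apoE3 the mean was 123 ± 31.9 CPM and with apoE2 109 ± 28.6 CPM.

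*Hipk3* varied least of the 7. Its 16 libraries lay between 114.7 and 162 CPM, with 121 ± 9.11 CPM in the control (SD, n = 4), 140.3 ± 14.5 CPM after apoE2, 141 ± 16.1 after apoE3 and 139 ± 13.6 after apoE4. Each isoform was above the control in 4 of 4 pairs, by ratios of 1.07 to 1.27, and the log2 fold changes were 0.22, 0.23 and 0.21 (standard error 0.11 each), or 0.21, 0.22 and 0.21 (0.06 each) with the block, which called that with apoE3. Between the isoforms the log2 fold changes lay between −0.02 and 0.01, smaller than their standard errors of 0.11.

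*Hipk4*, *Prkd1* and *Prkd2* had no direction against the control shared by all replicates, except *Prkd2* with apoE2, which was lower in 4 of 4 pairs. *Hipk4* had 2.17 to 11.8 CPM over the 16 libraries, and its log2 fold changes against the control were −0.19, −0.15 and 0.22 with apoE2, apoE3 and apoE4 (standard error 0.50 each). *Prkd1*, which encodes the best known protein kinase D, had 4.99 to 21.5 CPM and log2 fold changes of −0.20, 0.25 and 0.38 (0.47 each). *Prkd2* was the least abundant at 1.15 to 4.003 CPM, with −0.28, 0.00 and −0.17 (0.33 each). Every one of these 9 values was smaller than its standard error without the block. With the block *Hipk4* had −0.12, −0.19 and 0.20 (standard error 0.20 each), *Prkd1* −0.16, 0.20 and 0.28 (0.19 each) and *Prkd2* −0.29, 0.03 and −0.12 (0.19 each). Without apoE4 replicate 4 the unblocked value of *Prkd1* with apoE4 was −0.05, and without apoE3 replicate 4 that with apoE3 was −0.07.

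**Figure D3:**
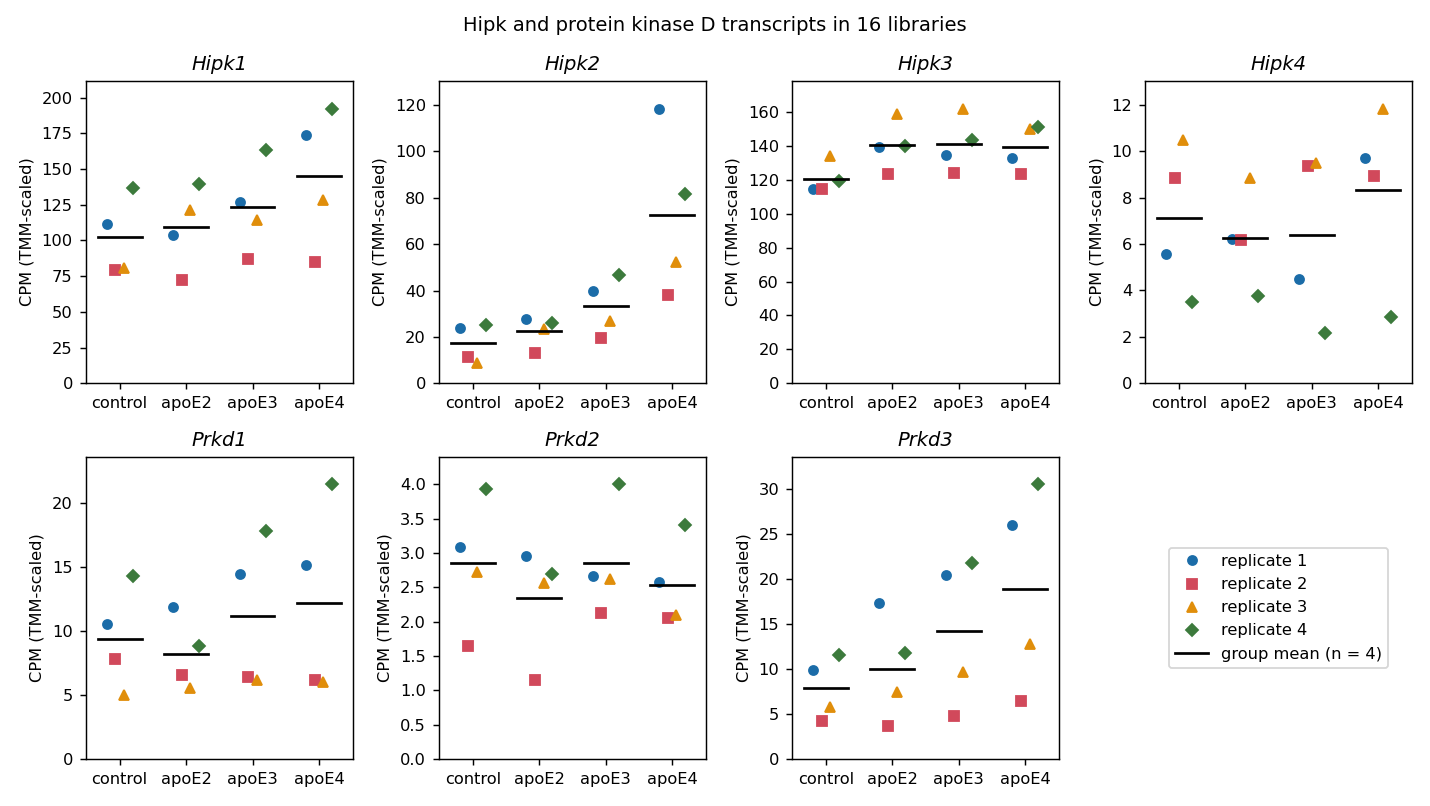
TMM-scaled CPM of each member in the 16 libraries, with 1 panel per gene, symbols for the replicate number and a line at the mean of each group (n = 4). In the *Hipk2* panel the apoE4 libraries, at 38.0 to 118.6 CPM, sit above all control libraries, while in the other panels every group overlaps the control.

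edgeR without the block called 0 of the 7 members at an adjusted p under 0.05 in all 6 comparisons. Against the control it called 0% of all genes for apoE2, 0.00587% for apoE3 and 0.194% for apoE4, and 0.147% between apoE4 and apoE3, 0.252% between apoE4 and apoE2 and 0% between apoE3 and apoE2. At an unadjusted p under 0.05 the members numbered 0, 1 and 2 against the control, out of 2.79, 6.43 and 3.30% of all genes. Between the isoforms they numbered 1, 1 and 0, out of 4.70, 5.34 and 2.28%. DESeq2 called *Hipk2* in the comparisons of apoE4 with the control and with apoE2, in which it called 0.534 and 0.988% of the genes. It called no other member in any comparison, and 0.217% of the genes for apoE2 and 0.352% for apoE3 against the control, 0.405% for apoE4 against apoE3 and 0.0529% for apoE3 against apoE2.

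With the replicate block edgeR called 3 of 7 members with apoE4, *Hipk1*, *Hipk2* and *Prkd3*, all higher, where 3.18% of all genes were called higher. With apoE3 it called *Hipk2*, *Hipk3* and *Prkd3*, all higher, where 7.95% were, and with apoE2 it called 0 members and 1.17% of all genes higher. *Hipk2* was called higher with apoE4 than with apoE3 (1.07% of all genes) and than with apoE2 (2.61%), and *Prkd3* was called higher with apoE4 than with apoE2. Between apoE3 and apoE2 it called 0 members and 0.716% of all genes higher. The comparisons with the control share its 4 libraries. These calls are made on the values that chose the members, so nothing is read from them. When all libraries of 1 replicate number were left out in turn from the blocked fit, 4 of the calls were lost in at least 1 fit, *Hipk1* with apoE4 without number 1, 3 or 4, *Prkd3* with apoE3 without number 1 or 3, *Hipk3* with apoE3 without any one of the numbers, and *Hipk2* between apoE4 and apoE3 without number 1.

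**Figure D4:**
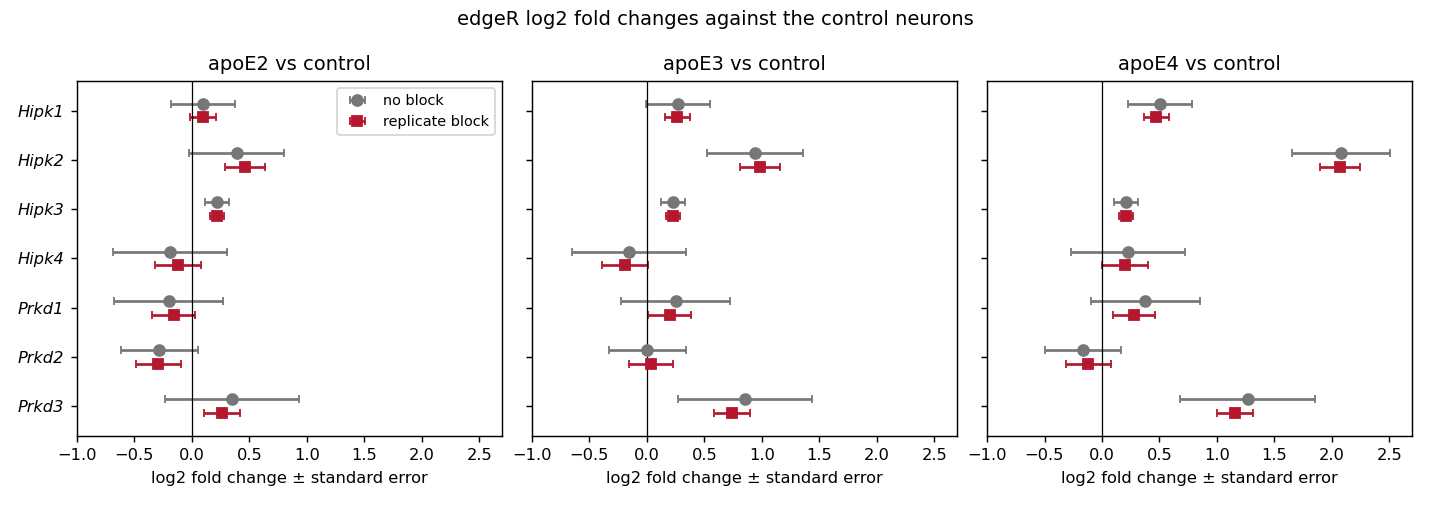
edgeR log2 fold changes of the 7 members against the control neurons (points) with their standard errors (bars), without the replicate block in grey and with it in red. *Hipk2* moved from 0.39 with apoE2 to 0.94 with apoE3 and 2.08 with apoE4 without the block, and the bars of *Prkd3* with apoE4 shortened from 0.59 to 0.15 with it.

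The replicate number, which the choice of members did not use, was tested in the blocked fit, and all 7 members passed the threshold on the adjusted p, as did 63.8% of all genes. The adjusted p of edgeR over all genes ran from 2.2e-07 for *Prkd3* to 0.0030 for *Prkd2*. For *Hipk4*, *Prkd1*, *Prkd3*, *Prkd2*, *Hipk1* and *Hipk3* the numbers held 83.7, 82.0, 73.7, 73.0, 70.9 and 55.7% of the variance of log2 CPM over the 16 libraries, where the median gene had 56.1%. *Hipk2* alone had more variance between the groups, 65.7%, than between the numbers, 28.9%, and the median gene had 14.4% between groups. The members were chosen on their levels over the groups. The share of *Hipk2* between groups, and with it that between numbers, is thus a description only.

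*Prkd1* and *Prkd3* followed the numbers in a similar way. *Prkd3* averaged 18.4 ± 6.72 CPM in replicate 1 and 18.9 ± 9.11 in replicate 4, against 4.74 ± 1.22 in replicate 2 and 8.91 ± 3.02 in replicate 3 (SD over the 4 groups). *Prkd1* averaged 13.0 ± 2.17 and 15.6 ± 5.39 CPM in replicates 1 and 4 and 6.73 ± 0.734 and 5.68 ± 0.523 CPM in replicates 2 and 3. *Hipk4* was highest where these were low, at 10.2 ± 1.31 CPM in replicate 3 and 8.34 ± 1.45 in replicate 2 against 3.07 ± 0.717 in replicate 4.

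Neuronal and glial markers also moved with the numbers. The 5 neuronal markers summed to 2078 to 3261 CPM in the libraries of replicates 1 and 4 and to 4091 to 5180 CPM in those of replicates 2 and 3. The 5 astrocyte markers summed to 382 to 619 CPM in replicate 2, where *Prkd3* was lowest, and to 2004 to 4877 CPM in replicate 4. In replicates 1 and 3 they summed to 941 to 3125 and to 1095 to 1987 CPM. These ranges overlapped, while *Prkd3* averaged 18.4 and 8.91 CPM there. The 5 markers of the oligodendrocyte lineage summed to 278 to 609.6 and 233 to 584 CPM in replicates 1 and 4, where *Prkd1* and *Prkd3* were high, and to 79.2 to 101 and 132 to 191 CPM in replicates 2 and 3. The 5 endothelial and mural markers summed to 19.9 to 44.8 CPM in replicate 1, 59.6 to 163 in replicate 4 and 10.9 to 19.7 CPM in replicates 2 and 3. The 5 microglial markers summed to 5.17 to 18.5 CPM over all libraries. Over the groups the astrocyte sum ranged from 382 to 2031 CPM in the control, 565 to 2013 with apoE2, 619 to 4877 with apoE3 and 551 to 3892 CPM with apoE4. None of these markers was at 0, and edgeR with the block called 0, 5 and 2 of them higher with apoE2, apoE3 and apoE4 than in the control. Of all genes it called 1.17, 7.95 and 3.18% higher. Between apoE4 and apoE3, 0 of the 5 were called and all had a log2 fold change below 0, with a median of −0.29, where that of *Hipk2* was 1.13. The 5 markers of dividing cells summed to 6.68 to 17.1 CPM in the control, 18.5 to 28.2 with apoE2, 25.7 to 39.97 with apoE3 and 11.5 to 28.1 CPM with apoE4. Within this sum *Top2a* had group means of 4.16, 14.7, 23.5 and 6.64 CPM, while *Mki67*, *Ccnb1*, *Cdk1* and *Aurkb* had their highest means with apoE4. The median log2 fold change of the 5 against the control was 0.45, 0.69 and 0.80 with apoE2, apoE3 and apoE4. That of the oligodendrocyte markers was 0.29, 0.73 and 0.41, and that of the 4 endothelial and mural markers tested was 0.03, 0.69 and 0.49. The part of these other cell types in the levels of the members was not tested.

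The 5 genes whose log2 CPM over the 16 libraries was most like that of *Hipk2* were *Aff1*, *AI506816*, *Ptpn14*, *Rmi2* and *Cdk6*, with Pearson's r of 0.97, 0.95, 0.94, 0.94 and 0.94. *Aff1* encodes a subunit of a transcription elongation complex, *Ptpn14* a tyrosine phosphatase, *Rmi2* a partner of the BLM helicase and *Cdk6* a cyclin-dependent kinase of the G1 phase. Most like *Prkd3* were *Rest*, *Wasf2*, *Ston1*, *Slc13a3* and *Gli3*, with r of 0.98 for the first and the second and from 0.975 to 0.976 for the rest. *Rest* encodes a repressor of neuronal genes, *Wasf2* an actin regulator, *Ston1* an endocytic adaptor, *Slc13a3* a dicarboxylate transporter and *Gli3* a transcription factor of Hedgehog signaling. These r values describe 16 libraries that share groups and replicate numbers.

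The other genes of both pathways, 89 listed from general knowledge of which 88 are in the files under the listed symbols and 86 were tested, had 0 calls without the block in all 6 comparisons. The lists were drawn up with earlier results of these data known. The calls and adjusted p values of listed genes are therefore a description and no independent support. At an unadjusted p under 0.05 edgeR had 2, 4 and 4 of them against the control and 5, 6 and 1 between the isoforms, while DESeq2 called only *Ssh1*, with apoE4 against the control and against apoE2. With the block edgeR called 4 of 86 with apoE2 (4.65%, where 1.73% of all genes were called), 11 with apoE3 (12.8%, against 11.7%) and 6 with apoE4 (6.98%, against 3.30%). Between the isoforms it called 0 for apoE4 and apoE3 (1.76% of all genes), 6 for apoE4 and apoE2 (6.98%, against 4.44%) and 2 for apoE3 and apoE2 (2.33%, against 1.31%). The median log2 fold change of the 86 genes lay between −0.02 and 0.03 over the 6 comparisons, and that of all tested genes between −0.02 and 0.02.

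Regulators of HIPK proteins, 9 genes that include the ubiquitin ligases *Siah1a*, *Siah1b*, *Siah2*, *Wsb1* and *Mdm2*, gave blocked calls of 1 gene. These were with apoE4 against the control and against apoE2, where 3.30 and 4.44% of all genes were called. *Senp1*, which removes SUMO from proteins and HIPKs among them, was higher with apoE4 at 20.1 ± 7.18 CPM against 12.4 ± 2.12 CPM in the control (SD, n = 4). Its log2 difference was 0.70 (SE 0.24, edgeR adjusted p = 0.868), or 0.65 (0.14, adjusted p = 0.0164) with the block, higher in 4 of 4 pairs. It was also higher with apoE4 than with apoE2 (0.74, adjusted p = 0.0068 with the block). Without number 1, 3 or 4 the call against the control was lost, and without number 1 that against apoE2. The 8 others were called by edgeR in no comparison over all 16 libraries.

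With the block edgeR called 1.73, 11.7 and 3.30% of all genes with apoE2, apoE3 and apoE4. Among 22 HIPK partners and substrates it called 2 with apoE4, both higher. Among them was *Runx1*, a transcription factor gene, at 5.76 ± 3.79 CPM with apoE4 and 2.15 ± 2.02 CPM in the control (SD, n = 4). The difference was 1.43 on the log2 scale (SE 0.86, edgeR adjusted p = 1.00), or 1.55 (0.28, adjusted p = 0.0054) with the block, higher in 4 of 4 pairs. With apoE3, *Runx1* (adjusted p = 0.0101) and *Pml*, which encodes the scaffold of PML nuclear bodies (adjusted p = 0.0147), were higher in the blocked edgeR fit. With apoE2 the corepressor gene *Ctbp2* was lower by a log2 fold change of −0.28 in that fit (adjusted p = 0.0420). The apoE3 calls and that of *Runx1* with apoE4 were lost without number 1 or 3, and that of *Ctbp2* without 1, 2 or 3. *Trp53*, *Daxx* and *Axin1* were called by edgeR in no comparison over all 16 libraries, while DESeq2 with the block called *Trp53* with apoE3.

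Upstream of the protein kinases D are 12 phospholipase C genes, whose products release diacylglycerol. With the block edgeR called 8.33, 25 and 8.33% of them with apoE2, apoE3 and apoE4. Of all genes it called 1.73, 11.7 and 3.30%. *Plcb3* was higher than in the control with apoE2, apoE3 and apoE4, at log2 fold changes of 0.56, 0.98 and 0.68 and edgeR adjusted p of 0.0461, 5.6e-04 and 0.0095 with the block, each in 4 of 4 pairs. Without the block the adjusted p was 1, 0.806 and 1.00. *Plce1* and *Plcg2* were higher with apoE3 (adjusted p = 0.0170 and 0.0311 in the blocked edgeR fit). Between apoE4 and apoE2, *Plcb1* was lower by a log2 fold change of −0.59 (adjusted p = 0.0114) and *Plch1* higher by 0.52 (adjusted p = 0.0228) in the same fit. When a replicate number was left out, the apoE3 call of *Plcb3* was made in 4 of 4 blocked fits, its apoE2 call was lost without number 1, 2 or 3 and its apoE4 call without 1 or 3. The call of *Plce1* was lost without number 1, that of *Plcb1* without 3, and those of *Plcg2* and *Plch1* were kept only without 2.

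Diacylglycerol kinases, 10 genes whose products remove diacylglycerol, gave calls in both directions in the blocked edgeR fit. That fit called 10, 20 and 10% of them with apoE2, apoE3 and apoE4, and 1.73, 11.7 and 3.30% of all genes. *Dgkk* was higher with apoE4 (log2 fold change 1.09, adjusted p = 0.0139) and apoE2 (0.95, adjusted p = 0.0443), from 1.98 ± 0.885 CPM in the control to 4.18 ± 1.81 and 3.65 ± 1.04 CPM (SD, n = 4). *Dgkz* and *Dgkd* were lower with apoE3 by −0.40 (adjusted p = 0.0069) and −0.33 (adjusted p = 0.0128), and *Dgkz* was also lower with apoE3 than with apoE2 (adjusted p = 0.0304). Without the block none of the 10 was called. The calls of *Dgkk*, and that of *Dgkz* against apoE2, were kept only without number 4, that of *Dgkz* against the control was lost without 1 or 3 and that of *Dgkd* without 1. Of the 7 genes for the protein kinase C isoforms that respond to diacylglycerol, 0 were called by edgeR over all 16 libraries in any comparison, without or with the block. Of all genes 1.31 to 11.7% were called with the block. *Prkcd* was called higher with apoE3 by DESeq2 with the block and by the blocked edgeR fit without number 2.

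Protein kinase D substrates and effectors, 17 tested genes, included the listed gene outside the families with the smallest adjusted p without the block. With the block edgeR called 0, 11.8 and 5.88% of the 17 with apoE2, apoE3 and apoE4, and 1.73, 11.7 and 3.30% of all genes. *Ssh1*, which encodes the cofilin phosphatase slingshot and thereby acts on actin filaments, was at 25.7 ± 3.92 CPM with apoE4 against 17.5 ± 0.543 CPM in the control (SD, n = 4). On the log2 scale the difference was 0.56 (SE 0.11, edgeR adjusted p = 0.0900), or 0.55 (0.11, adjusted p = 0.0118) with the block, higher in 4 of 4 pairs. It was also higher with apoE4 than with apoE2 in the blocked edgeR fit (0.51, adjusted p = 0.0145), as was *Rin1* (0.51, adjusted p = 0.0041), which encodes a Ras effector. With apoE3, *Mef2c*, a MEF2 transcription factor gene, was lower at 139.97 ± 4.10 CPM against 183 ± 18.8 CPM (−0.38, adjusted p = 0.0157), and the kinase gene *Pak4* higher (0.43, adjusted p = 0.0415), both in the blocked edgeR fit. *Hdac9* was lower with apoE3 than with apoE2 (−0.52, adjusted p = 0.0318), and *Hdac4*, *Hdac5*, *Hdac7* and *Kidins220* were called by edgeR in no comparison over all 16 libraries. Both calls of *Ssh1* and that of *Pak4* were kept only without number 2 when a number was left out. That of *Rin1* was lost without number 3, that of *Mef2c* without 1 or 2 and that of *Hdac9* without any one of the numbers.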

How the data were processed

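Per the paper's methods, RNA was depleted of ribosomal RNA, and the authors aligned reads to mm10 with STAR and counted them per gene with HTSeq. The deposited values are raw counts per gene symbol, 1 file per library, not normalized. The annotation and the strand setting are not given in the sources used here. Totals of reads on no single gene stayed out of library sizes. Groups and replicate numbers came from the sample titles. The study states 4 independent cultures per group.

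Counts were fitted with edgeR 4.0.16 in R 4.3.3 over all 16 libraries (TMM scaling, filterByExpr with a minimum count of 10, 1 coefficient per group, quasi-likelihood test, Benjamini-Hochberg adjustment over 17038 genes), with 3 contrasts against the control and 3 of one isoform against another. CPM divide gene counts by TMM-scaled library sizes, and log2 CPM use a prior count of 2. Standard errors are the log2 fold change over the square root of F. The block adds the replicate number. Numbers paired the libraries because the 6 correlations of deviations were 0.362 to 0.552 for number 1, 0.766 to 0.831 for 2, 0.620 to 0.671 for 3 and 0.681 to 0.790 for 4, each over 0.1. The 72 pairs of different numbers had −0.736 to 0.569, a range that holds all values of number 1. The common dispersion was 0.132 without and 0.0178 with the block. The test of the replicate number was added after seeing the data. The scripts were tested on simulated data.

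Members and gene lists were chosen with earlier results of these data known. Named were all members, listed genes called without the block, the 3 with the smallest p per list and comparison among those called with the block only, and the 5 genes most like *Hipk2* and *Prkd3*. Listed genes said to be in no call were named as examples. A called gene of the lists is not reported here. One gene is listed under both *Cert1* and its older symbol *Col4a3bp*, and the files hold the older one. Gene models come from GENCODE M21 and promoters from RefSeq (GRCm38.p6, the mm10 assembly), with all 7 members matched. DESeq2 1.42.0, other scalings and filters, fits of the 2 groups compared and left-out libraries were alternatives.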

Additional observations from a re-analysis of the deposited data

How the results depend on the processing

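Without the block, the number of members called at an adjusted p under 0.05 stayed at 0 in all 6 comparisons with DESeq2 size factors, no low-count filter, the stricter filter (1 CPM in 8 libraries), only the 2 groups compared and *Lars2* left out, the last chosen after seeing the data. The pathway count stayed at 0 in them too. With the replicate block the members called were 3 with apoE3, 3 with apoE4, 1 between apoE4 and apoE3 and 2 between apoE4 and apoE2, and the pathway genes were 4, 11 and 6 against the control, 6 between apoE4 and apoE2 and 2 between apoE3 and apoE2. DESeq2 called 1 member and 1 pathway gene for apoE4 against the control and against apoE2. Leaving out 1 library at a time gave 0 to 1 members and 0 to 1 pathway genes with apoE4, and 0 to 1 pathway genes between apoE4 and apoE2, the calls being *Hipk2* and *Ssh1* without apoE4 replicate 2. Added after seeing the data, DESeq2 with the replicate block called 1, 3 and 4 members and 6, 17 and 7 pathway genes against the control, and 1 and 3 members between apoE4 and apoE3 or apoE2. It called 4, 8 and 8 pathway genes between the isoforms. The blocked edgeR fit without number 1, 2, 3 or 4, also added then, called 1, 2, 1 and 2 members with apoE3, 2, 3, 2 and 2 with apoE4, 2 in each between apoE4 and apoE2, and 1 between apoE4 and apoE3 without 2, 3 or 4. Its pathway genes numbered 6 with apoE2 without number 4, 1, 12, 4 and 8 with apoE3, 4 and 6 with apoE4 without 2 and 4, 1 and 1 between apoE4 and apoE3 without 2 and 4, 2, 6, 2 and 3 between apoE4 and apoE2, and 2 between apoE3 and apoE2 without number 4. The share of all genes called is not given for the fits added after seeing the data, nor for those with 1 library left out. Their counts are therefore not read as a result. The cause of these moves was not tested. All 1176 alternative log2 fold changes of the members lay within 1 SD of the reported value, the SD of log2 CPM within the 2 groups compared. Leaving out 1 of 4 libraries can shift a group mean by only part of its SD. The count therefore does not test how stable the values are. Small values turned sign in some fits. Against the control, those of *Hipk1* and *Prkd3* with apoE2 did so (to −0.07 and −0.04), and those of *Hipk4* with apoE2, apoE3 and apoE4 (to 0.06, 0.13 and −0.01). So did those of *Prkd1* with the same (to 0.08, −0.07 and −0.05) and *Prkd2* with apoE3 and apoE4 (to −0.20 and 0.03). Between the isoforms, those of *Hipk3* in all 3 comparisons, *Hipk4* for apoE3 and apoE2, *Prkd1* for apoE4 and apoE3 and *Prkd2* for apoE4 and either other isoform did so. That of *Hipk2* with apoE4 ranged from 1.74 without apoE4 replicate 1 to 2.32 without control replicate 4, and that of *Prkd3* from 0.93 without apoE4 replicate 4 to 1.56 without apoE4 replicate 2. *Prkd2*, with 1.15 to 4.003 CPM, and *Hipk4* rest on the fewest reads.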

Other observations

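The DYRK and CLK kinases and *Prpf4b* belong to the same branch of the kinome as HIPKs. Of 9 tested genes, edgeR called 0 without the block in any comparison over all 16 libraries, with 1 at an unadjusted p under 0.05 with apoE3, and DESeq2 called 0. With the replicate block *Dyrk2* was higher with apoE2 (log2 fold change 0.45, edgeR adjusted p = 0.0482), and with apoE3 *Dyrk3* was higher (0.33, adjusted p = 0.0365) and the splicing kinase gene *Clk1* lower (−0.36, adjusted p = 0.0483). Of all genes 1.73% were called with apoE2 and 11.7% with apoE3. With apoE4, where *Hipk2* had 2.08, 0 of the 9 were called with the block over all 16 libraries, against 3.30% of all genes. Their median log2 fold change was −0.08. When a replicate number was left out of the blocked fit, the call of *Dyrk2* was lost without any one of the numbers, that of *Dyrk3* was kept only without number 2 and that of *Clk1* only without number 4. With apoE4, *Clk1* and *Prpf4b* were called lower without number 4.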
